A study of Homo sapiens with 8 samples.

Results

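The p53 target genes CDKN1A, MDM2, SESN1, TP53I3, FAS, BTG2, ZMAT3, RRM2B, TP53INP1 and PHLDA3 were read from the gene counts of a human urothelial cell line after glucose oxidase. They were taken by gene name and are 10 of the 58735 genes in the count table. All 10 were among the 17413 genes that passed the filter on low counts. The 8 cultures were all SV-HUC1, a long-established cell line made by immortalising normal human urothelium with SV40. In 4 cultures, named treated here, glucose oxidase was present at 20 mU per ml for 24 h, and 4 untreated cultures, named control, were collected at the same time. Glucose oxidase makes hydrogen peroxide while it consumes glucose, and with no culture given peroxide by itself or the enzyme in inactive form, these effects cannot be told apart. Libraries of both groups carry the replicate numbers 1 to 4, and all cultures are of a single line.

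p53 is a transcription factor that is held low by the ubiquitin ligase MDM2 and stabilised by DNA damage and other stress. It then raises genes of cell cycle arrest, DNA repair, redox balance and cell death, and it raises MDM2, which closes a feedback loop. SV40 large T antigen binds p53 and blocks its binding to DNA, and it also binds the RB family, which frees E2F factors. Several of the genes below are also raised by other pathways. CDKN1A and BTG2, for example, respond to growth factor signalling. The level of large T antigen in these cultures was not analysed here.

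Total counts ran from 21437267 to 27183692 in treated and from 21653952 to 23543702 in control libraries. Urothelial and epithelial markers summed to 3790 to 4210 CPM (read counts scaled to library size, with TMM normalisation) in treated and 4990 to 7410 CPM in control libraries, with 12 of 14 tested and UPK1A and UPK3A not among them. Marker genes of other cells were near the floor. Their sums were 14.4 to 26.2 CPM in treated and 16.3 to 26.1 CPM in control libraries for 6 fibroblast genes, of which 5 were under 1 CPM in all libraries. For 5 endothelial genes they were 3.00 to 6.05 and 3.37 to 5.27 CPM (3 under 1 CPM), and for 6 leukocyte genes 4.69 to 6.36 and 7.22 to 9.68 CPM (4 under 1 CPM). Libraries of replicates 1 and 2 stood apart from those of replicates 3 and 4 in both groups, a division that the labels do not give. Its values stand beside the results. Of the 12 epithelial markers tested 4 fell and 1 rose in the fit described below, where 6.97% of all genes fell and 7.51% rose. The part of this shift in the other results was not tested. In such bulk samples fewer cells of a kind and less RNA per cell cannot be told apart.

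Counts were tested with edgeR's quasi-likelihood test, with p-values adjusted over all genes tested and a threshold of 0.05. With the group as the only term, 0 of the 10 genes passed, as did 0.00% of all genes. At an unadjusted p below 0.05 there was 1 of the 10, TP53I3, beside 7.37% of all genes. DESeq2 without a block called 0 of the 10, beside 0.366% of the 20224 genes given an adjusted p. It had 2 of the 10 at an unadjusted p below 0.05, beside 4.69% of the genes with a p-value. Libraries of equal number deviated together (correlations 0.503 to 0.678), so a fit blocked on the replicate number is given throughout. Unequal numbers inside replicates 1 and 2 or inside 3 and 4 also did so (0.443 to 0.652). These values do not settle whether equal numbers mark paired cultures. The words "rose" and "fell" below are said of genes past the threshold in the blocked fit. It called 1 of the 10 genes higher, CDKN1A, and 2 lower, TP53I3 and SESN1. The share called over all genes was 14.5% in either direction, 7.51% higher and 6.97% lower. The median log2 change of the 10 genes was -0.074, that of all genes -0.007, and 4 of the 10 were above and 6 below 0. DESeq2 with the block called the same numbers, 1 higher and 2 lower. There 16.8% of the 14965 genes given an adjusted p passed, 8.09% higher and 8.69% lower. A further edgeR fit had in place of the block a single term that separates libraries 1 and 2 from libraries 3 and 4, named the set term. It called 1 of the 10 higher and 1 lower, beside 6.79% of all genes, 3.72% higher and 3.07% lower. In the authors' deposited table none of the 10 genes passed, with adjusted p-values of 0.396 (TP53I3) to 0.928 (ZMAT3).

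**Figure D1:**
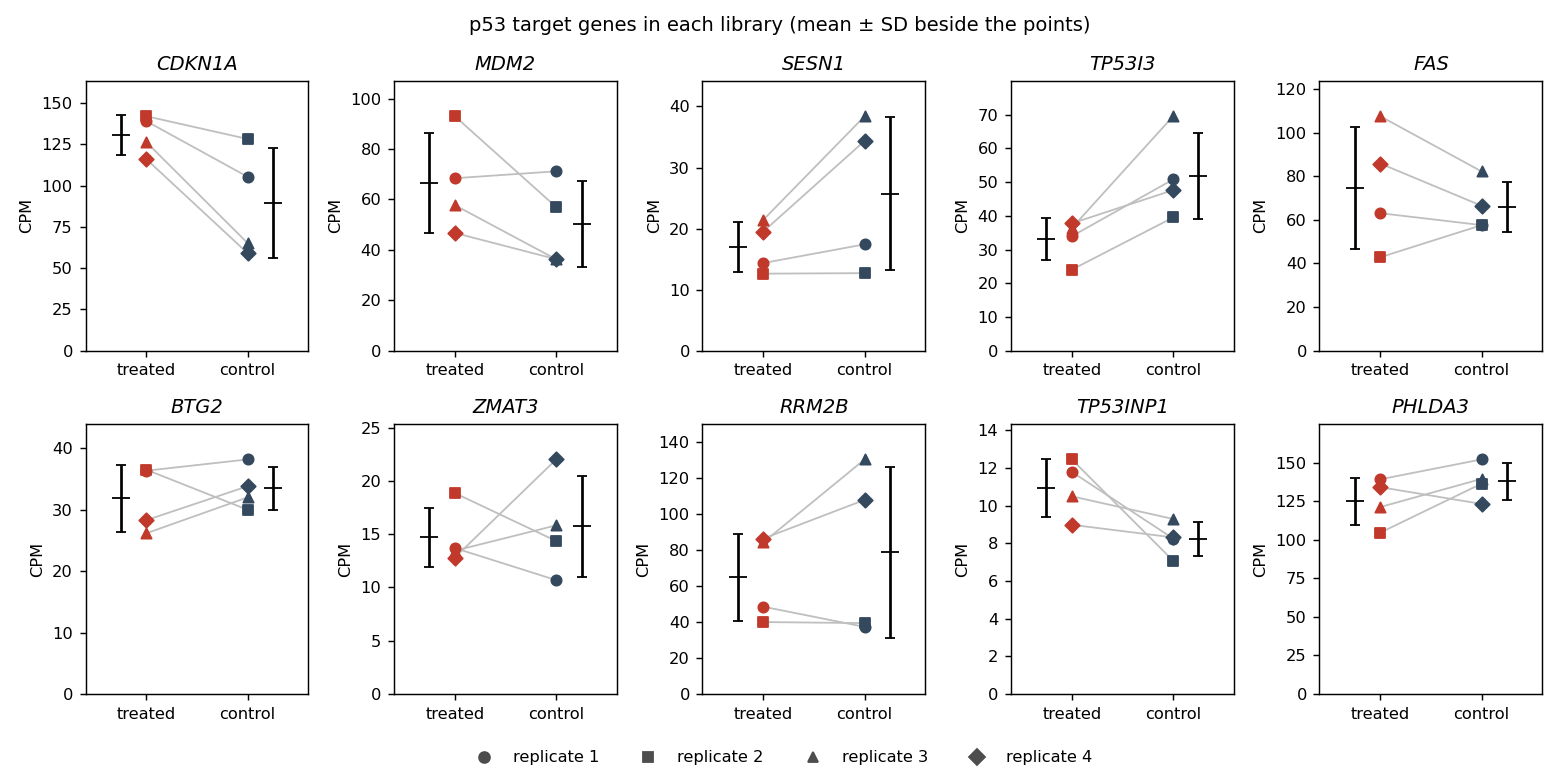
CPM of the 10 genes in each library on a linear axis, treated cultures on the left and control cultures on the right; symbols mark the replicate number, grey lines join equal numbers, and bars beside the points are mean ± SD of 4 libraries. The libraries of the groups do not overlap for TP53I3, and for SESN1 and RRM2B replicates 3 and 4 stand above replicates 1 and 2 in both groups.

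The annotated start regions of 3 of these genes hold a sequence close to the p53 consensus. Windows of 300 bases, from 250 before to 50 after a transcript start, were taken from RefSeq (build GRCh38.p14) and were found for 7 of the 10 genes, in 15 windows. They were searched for the p53 full site without spacer, 20 bases that read alike on both strands, allowing up to 3 mismatches outside the 4 core letters. Such a match was in 1.12% of all 35116 windows, and in windows of MDM2, FAS and SESN1. The windows are shown with the match in capitals. Whether the matches bear on the counts below was not tested.
MDM2, chr12:68808767-68809066, plus strand: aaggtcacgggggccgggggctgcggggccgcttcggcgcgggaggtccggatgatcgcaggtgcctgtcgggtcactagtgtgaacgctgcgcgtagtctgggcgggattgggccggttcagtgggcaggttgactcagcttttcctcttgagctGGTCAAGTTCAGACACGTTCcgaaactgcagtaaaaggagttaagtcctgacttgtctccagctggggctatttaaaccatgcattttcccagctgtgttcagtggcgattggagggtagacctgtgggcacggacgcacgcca
FAS, chr10:88991181-88991480, plus strand: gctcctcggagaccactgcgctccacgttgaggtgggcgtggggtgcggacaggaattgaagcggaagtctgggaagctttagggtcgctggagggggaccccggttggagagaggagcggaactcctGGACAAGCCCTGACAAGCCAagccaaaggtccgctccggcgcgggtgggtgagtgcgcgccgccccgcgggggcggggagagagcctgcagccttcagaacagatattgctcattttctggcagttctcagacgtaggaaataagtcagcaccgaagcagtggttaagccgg
SESN1, chr6:109008939-109009238, minus strand: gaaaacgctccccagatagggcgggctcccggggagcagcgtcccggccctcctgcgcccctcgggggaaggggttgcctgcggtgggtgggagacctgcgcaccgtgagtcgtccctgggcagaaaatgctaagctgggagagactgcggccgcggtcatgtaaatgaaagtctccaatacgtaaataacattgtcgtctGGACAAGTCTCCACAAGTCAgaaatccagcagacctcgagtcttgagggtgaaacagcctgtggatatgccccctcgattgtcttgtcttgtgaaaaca
The MDM2 match (chr12:68808923-68808942) has 2 mismatches and lies in an intron of 7 of the 34 transcripts of GENCODE release 29, before the gene's internal start. The FAS match (chr10:88991309-88991328) also has 2 mismatches and is intronic in 11 of 20 transcripts and exonic in 2. The SESN1 match (chr6:109009018-109009037) has 3 mismatches and is intronic in 2 of 7 transcripts. The windows of CDKN1A, TP53I3, BTG2 and ZMAT3 held no match, which says only that these letters are not in those windows. Gene counts do not separate the starts of a gene.

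Per length, the 10 genes spanned a wide range of levels in the authors' FPKM values. PHLDA3 was at 39.2 ± 5.23 FPKM in treated and 43.3 ± 3.64 FPKM in control cultures (SD, n = 4), and CDKN1A at 42.2 ± 3.42 FPKM in treated and 28.7 ± 9.91 FPKM in control cultures (SD, n = 4). By control mean they were followed by TP53I3, FAS, RRM2B, BTG2, SESN1, MDM2, ZMAT3 and TP53INP1, the last at 1.89 ± 0.24 FPKM in treated and 1.44 ± 0.19 FPKM in control cultures (SD, n = 4). In control libraries the ranges of neighbours in this order overlapped except between BTG2 and SESN1 and between MDM2 and ZMAT3.

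Among the genes of cell cycle arrest, CDKN1A rose and BTG2 did not pass. CDKN1A (ENSG00000124762, chr6:36676460-36687339, plus strand) encodes p21, an inhibitor of cyclin-dependent kinases. It was at 139.0, 142.0, 126.3 and 116.0 CPM in treated replicates 1 to 4, against 105.3, 128.2, 65.1 and 59.0 CPM in control replicates 1 to 4. The treated libraries lay close together, while controls 3 and 4 were far below controls 1 and 2, and control 2 was above treated 3 and 4. The log2 change was 0.62 (SE 0.16, edgeR adjusted p = 0.00865), positive in 4 of 4 pairs, at 0.40, 0.15, 0.96 and 0.97. With the set term the adjusted p was 0.0342. The call was lost without replicate 3 (adjusted p = 0.0752) and without replicate 4 (adjusted p = 0.0983). The change was larger in pairs 3 and 4 by a log2 difference of 0.70 (SE 0.26), which did not pass (adjusted p = 0.512). BTG2 (ENSG00000159388, chr1:203305491-203309602), an antiproliferative protein that promotes mRNA deadenylation, was at 26.2 to 36.5 CPM in treated and 30.0 to 38.2 CPM in control libraries. Its log2 change was -0.08 (SE 0.14, adjusted p = 0.755), with a positive value of 0.03 under scaling by total counts.

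MDM2 (ENSG00000135679, chr12:68808176-68850686, plus strand), the ubiquitin ligase that removes p53, did not pass, with an adjusted p just over the threshold. It was at 68.4, 93.0, 57.7 and 46.7 CPM in treated replicates 1 to 4, against 71.2, 57.0, 36.2 and 36.3 CPM in control replicates 1 to 4. The groups overlapped, since controls 1 and 2 were above treated 4, and control 1 was the only control above its treated partner. The log2 change was 0.42 (SE 0.15) with an edgeR adjusted p of 0.0539, and it was positive in 3 of 4 pairs. MDM2 was called under total counts with the block (log2 change 0.53, adjusted p = 0.0327) and without replicate 1 (0.60, adjusted p = 0.0201). Without replicates 2, 3 and 4 in turn its adjusted p was 0.213, 0.254 and 0.131, and with the set term 0.0866. With a correction for gene length its log2 change was 0.24 (adjusted p = 0.288), and over all genes the median log2 change without it was 0.181 in the decile of longest and -0.193 in that of shortest genes. MDM2's close relative MDM4, which inhibits p53 without degrading it, was at 24.0 to 52.2 CPM in treated and 16.7 to 45.8 CPM in control libraries (log2 change 0.25, adjusted p = 0.286).

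Of the 10 genes, TP53I3 and SESN1, of redox and metabolic control, fell. TP53I3 (ENSG00000115129, chr2:24077433-24085861, minus strand) encodes a quinone oxidoreductase that has been tied to reactive oxygen in p53-driven death. It was at 34.0, 24.0, 36.4 and 37.8 CPM in treated replicates 1 to 4, against 50.8, 39.5, 69.6 and 47.6 CPM in control replicates 1 to 4. Every treated library lay below every control, which held for 2.60% of all genes. In the other direction this held for 2.42% of all genes, in either for 5.02%, and for no other of the 10. The log2 change was -0.64 (SE 0.14, edgeR adjusted p = 0.00307), negative in 4 of 4 pairs at -0.58, -0.72, -0.93 and -0.34. It was -0.65 in the mean of pairs 1 and 2 and -0.63 in that of pairs 3 and 4. The call was kept without each replicate number in turn (adjusted p = 0.00926 to 0.0396), with the set term (adjusted p = 0.0253) and with the correction for gene length (adjusted p = 0.00902).

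SESN1 (ENSG00000080546, chr6:108986437-109094819, minus strand) encodes sestrin 1, a stress protein that restrains mTORC1 signalling. It was at 14.4, 12.6, 21.4 and 19.5 CPM in treated replicates 1 to 4, against 17.4, 12.7, 38.4 and 34.4 CPM in control replicates 1 to 4. Controls 3 and 4 were the high libraries, and replicate 2 was alike in both groups. The log2 change was -0.50 (SE 0.16, edgeR adjusted p = 0.0310), negative in 4 of 4 pairs at -0.28, -0.01, -0.84 and -0.81. This call was lost with the set term (adjusted p = 0.0760), under total counts with the block (adjusted p = 0.117), and without replicate 1 (adjusted p = 0.0507), replicate 3 (adjusted p = 0.223) or replicate 4 (adjusted p = 0.190). SESN2, its paralogue, rose (log2 change 0.99, adjusted p = 0.00325). SESN2 was at 111.4, 117.4, 54.2 and 46.6 CPM in treated replicates 1 to 4, against 85.0, 116.8, 13.6 and 14.2 CPM in control replicates 1 to 4. Within replicates 3 and 4 the sestrins thus stood in opposite order, with SESN1 lower and SESN2 higher in both treated libraries. The call of SESN2 was lost without replicate 4 (adjusted p = 0.0915) and in DESeq2 with the block (adjusted p = 0.109).

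Same direction in all 4 pairs was seen for 4 of the 10 genes, TP53I3 and SESN1 lower and CDKN1A and TP53INP1 higher, against 34.0% of all genes, 17.1% lower and 16.9% higher.

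**Figure D2:**
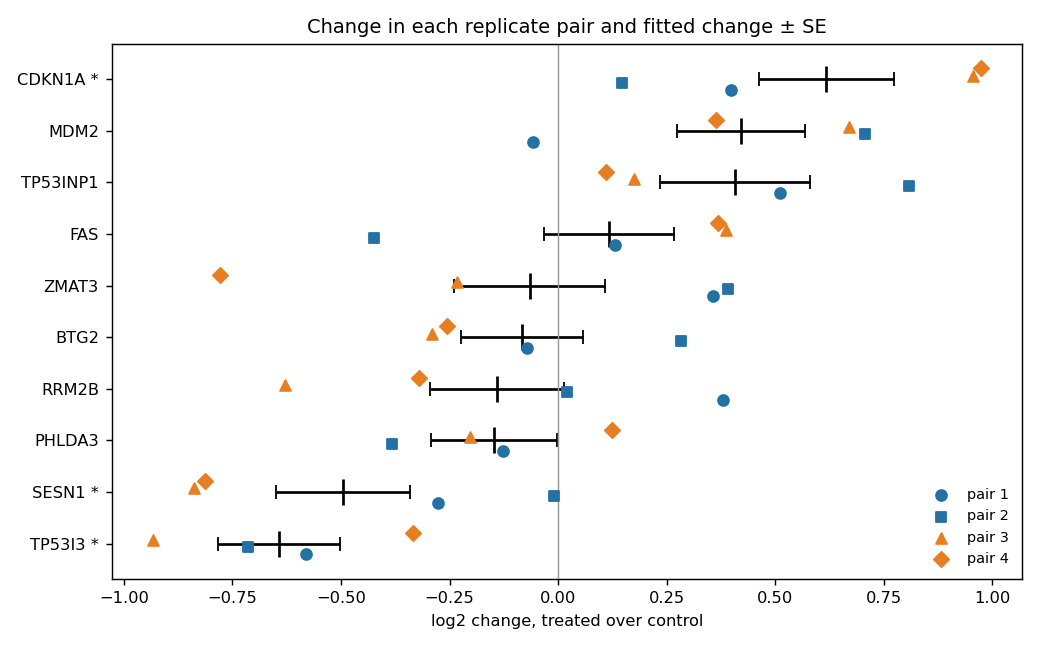
Log2 change of treated over control for each gene and each pair of equal replicate number (symbols, blue for pairs 1 and 2, orange for pairs 3 and 4), with the edgeR estimate ± SE from the fit with the replicate block as a black line; asterisks mark an adjusted p below 0.05. The symbols of TP53I3 all lie below 0, and those of ZMAT3 and RRM2B lie on both sides, with pairs 1 and 2 above 0.

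FAS, TP53INP1 and PHLDA3 did not pass. FAS (ENSG00000026103, chr10:88990582-89015785), a death receptor, was at 63.0, 42.8, 107.5 and 85.8 CPM in treated replicates 1 to 4, against 57.6, 57.6, 82.2 and 66.4 CPM in control replicates 1 to 4. Both treated libraries of replicates 3 and 4 were above all controls and treated 2 was below them all, and the log2 change was 0.12 (SE 0.15, adjusted p = 0.657). TP53INP1 (ENSG00000164938, chr8:94925972-94949411), a nuclear protein of stress-induced autophagy and death, was at 11.8, 12.5, 10.5 and 8.99 CPM in treated replicates 1 to 4, against 8.26, 7.08, 9.30 and 8.32 CPM in control replicates 1 to 4. Only treated 4 fell inside the control range, and the log2 change was 0.41 (SE 0.17, adjusted p = 0.113). PHLDA3 (ENSG00000174307, chr1:201464383-201469237), which competes with AKT for membrane lipids, was at 104.6 to 139.2 CPM in treated and 123.2 to 152.1 CPM in control libraries (log2 change -0.15, SE 0.14, adjusted p = 0.543). Its paralogue PHLDA1 rose (log2 change 1.41, adjusted p = 0.00156), with a range of 64.2 to 151.6 CPM in treated and 8.96 to 110.5 CPM in control libraries. That call was lost without replicate 4 (adjusted p = 0.0682) and in DESeq2 with the block (adjusted p = 0.0884).

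RRM2B and ZMAT3 did not pass, and their pairs differed in sign. RRM2B (ENSG00000048392, chr8:102204502-102239118) encodes the p53-inducible small subunit of ribonucleotide reductase, which supplies nucleotides for repair. It was at 48.5, 40.0, 84.3 and 86.4 CPM in treated replicates 1 to 4, against 37.3, 39.4, 130.5 and 108.0 CPM in control replicates 1 to 4. Libraries 3 and 4 of both groups were above all of libraries 1 and 2, and the log2 change was -0.14 (SE 0.15, adjusted p = 0.595). ZMAT3 (ENSG00000172667, chr3:179017223-179072279), an RNA-binding regulator of splicing, was at 13.7, 18.9, 13.4 and 12.8 CPM in treated replicates 1 to 4, against 10.7, 14.4, 15.8 and 22.0 CPM in control replicates 1 to 4. Treated libraries were higher in pairs 1 and 2 and lower in pairs 3 and 4, and the log2 change was -0.07 (SE 0.17, adjusted p = 0.848), positive at 0.04 under total counts. The difference in log2 change between pairs 3 and 4 and pairs 1 and 2 was -0.69 (SE 0.26, adjusted p = 0.514) for RRM2B and -0.90 (SE 0.34, adjusted p = 0.507) for ZMAT3. It passed for 0 of the 10 genes in edgeR, against 0.230% of all genes, and 4 of the 10 (ZMAT3, CDKN1A, RRM2B and SESN1) had an unadjusted p below 0.05 for it, beside 8.40% of all genes.

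Levels also differed between the sets of replicates. In treated cultures the means of replicates 3 and 4 and of replicates 1 and 2 were 85.4 and 44.3 CPM for RRM2B, 20.5 and 13.5 CPM for SESN1, 121.2 and 140.5 CPM for CDKN1A and 52.2 and 80.7 CPM for MDM2. In control cultures the same means were 119.2 and 38.4 CPM for RRM2B, 36.4 and 15.1 CPM for SESN1, 62.1 and 116.8 CPM for CDKN1A and 36.3 and 64.1 CPM for MDM2. For FAS they were 96.6 and 52.9 CPM in treated and 74.3 and 57.6 CPM in control cultures, so the sets lay further apart in treated cultures. These 5 genes were chosen after their values were seen, and their levels were not tested.

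TP63, a p53 family member of basal urothelium, was at 0.58 to 1.47 CPM in treated and 0.05 to 1.10 CPM in control libraries and did not pass (adjusted p = 0.461). Of 20 genes of the p53 family and its regulators, 4 rose and 0 fell, beside 7.51% and 6.97% of all genes. Among the 4 were the acetyltransferases CREBBP (log2 change 0.77, adjusted p = 0.00133) and EP300 (0.79, adjusted p = 0.00273), which acetylate p53, and the kinase HIPK2 (0.69, adjusted p = 0.00343). In DESeq2 with the block 4 were higher and 3 lower, beside 8.09% and 8.69% of the genes given an adjusted p, which TP63 was not. Of the 4 that rose, CREBBP alone passed with the set term (adjusted p = 0.0360).

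Other targets of p53 also went both ways. Of 47 further target genes 45 were tested, of which 10 rose, 4 fell and 31 did not pass, with a median log2 change of 0.121. Over all genes 7.51% rose and 6.97% fell, with a median of -0.007. The largest increase was of GDF15, a stress-induced cytokine of the TGF-beta superfamily, with 421.4, 377.8, 198.9 and 191.8 CPM in treated replicates 1 to 4, against 232.2, 257.1, 20.1 and 22.8 CPM in control replicates 1 to 4. Treated libraries were higher in all 4 pairs and the groups overlapped, since controls 1 and 2 exceeded treated 3 and 4 (log2 change 1.92, SE 0.31, adjusted p = 0.000186). SUSD6 (log2 change 0.79, adjusted p = 0.000791) and CYFIP2, an actin regulator (0.76, adjusted p = 0.00190), also rose. Those that fell were TRIAP1, an inhibitor of apoptosome formation (log2 change -0.61, adjusted p = 0.00531), KITLG, the ligand of KIT (-0.55, adjusted p = 0.00778), FDXR, a mitochondrial ferredoxin reductase (-0.48, adjusted p = 0.0256), and the ribosomal protein paralogue RPS27L (-0.52, adjusted p = 0.0293). With the set term, 5 were higher and 1, KITLG, was lower, beside 3.72% and 3.07% of all genes. The adjusted p was then 0.0760 for TRIAP1, 0.0784 for FDXR and 0.108 for RPS27L. Calls were lost for FDXR without replicates 1, 2 or 3 (adjusted p = 0.0679 to 0.163) and for RPS27L without replicates 2, 3 or 4 (adjusted p = 0.0720 to 0.203). Under total counts with the block 11 were higher and 1 lower, beside 1675 and 535 of the 17413 genes tested. The 1 lower there was TRIAP1 (edgeR adjusted p = 0.0249), and KITLG did not pass (edgeR adjusted p = 0.0575). In DESeq2 with the block 6 were higher and 7 lower, beside 8.09% and 8.69% of the genes given an adjusted p. Genes of the mitochondrial death pathway, chosen after their values were seen, did not pass. BAX had a log2 change of -0.14 (adjusted p = 0.550), BBC3 of 0.32 (adjusted p = 0.270) and PMAIP1 of 0.34 (adjusted p = 0.387). BBC3 and PMAIP1 had a negative mean change in pairs 1 and 2 and a positive one in pairs 3 and 4, a difference that did not pass (adjusted p = 0.329 for BBC3 and 0.179 for PMAIP1).

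**Figure D3:**
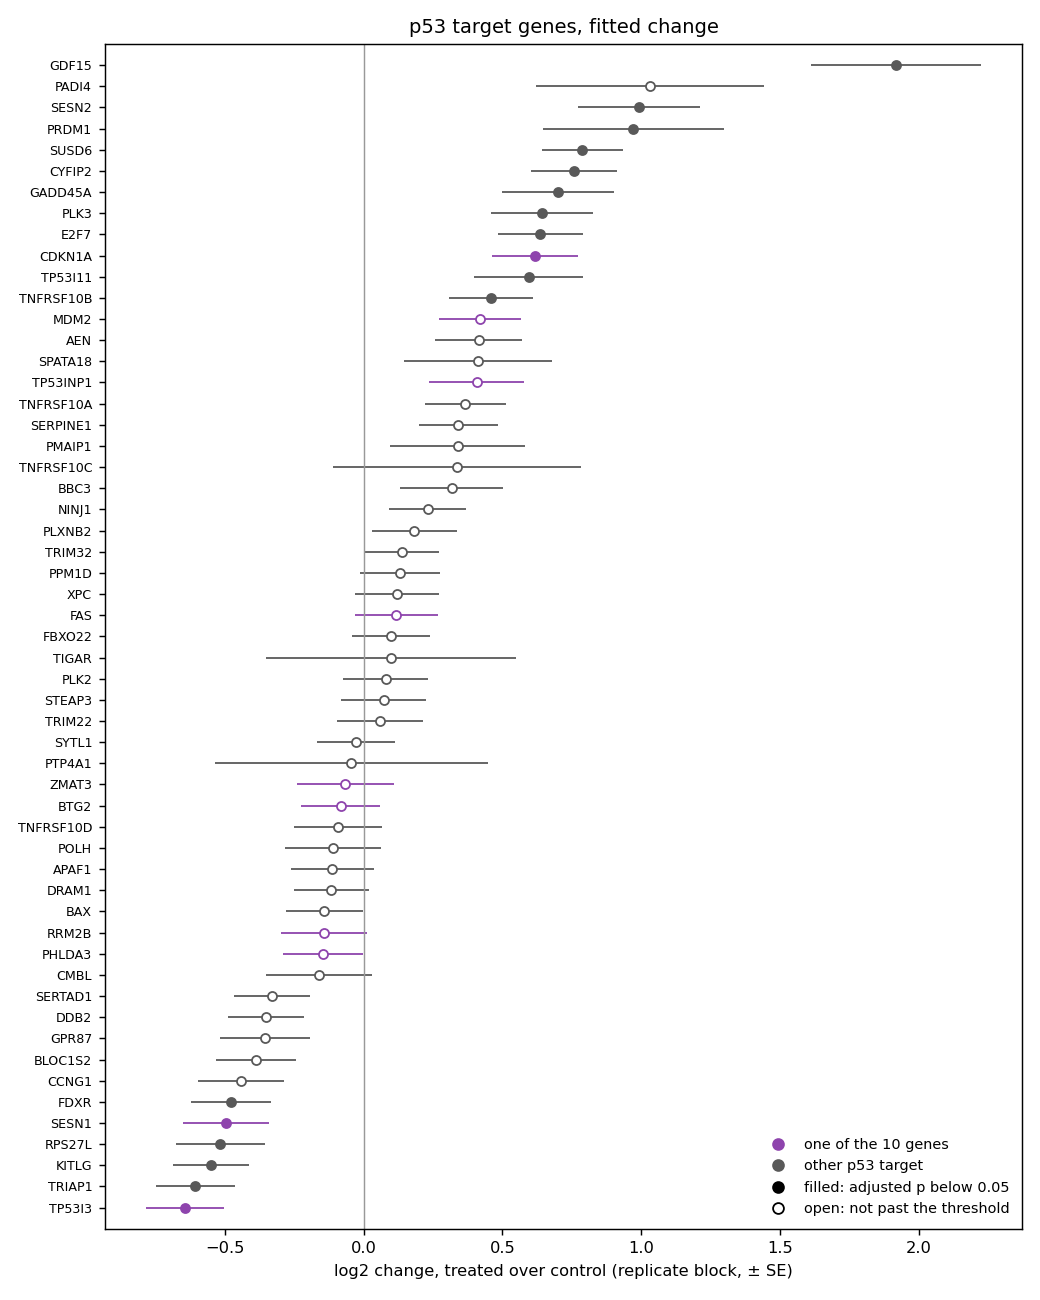
edgeR estimates of the log2 change, treated over control, ± SE from the fit with the replicate block, for the 10 genes (purple) and 45 other tested p53 targets (grey); filled points have an adjusted p below 0.05. GDF15 is at the top at 1.92 and TP53I3 at the bottom at -0.64. The 10 genes lie between TP53I3 and CDKN1A, which is at 0.62, with only other targets above it.

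Cell cycle genes that p21 lowers through the RB family and the DREAM complex were also counted. Of 30 such genes 1 rose, MKI67, a proliferation marker (log2 change 0.51, adjusted p = 0.0366), 5 fell and 24 did not pass, with a median log2 change of -0.229. Over all genes 7.51% rose and 6.97% fell, with a median of -0.007. Those with the smallest adjusted p among the 5 that fell were PTTG1, securin (log2 change -0.62), NEK2 (-0.53), TTK (-0.52) and BIRC5, survivin (-0.45), and the other was CDK1 (-0.50, adjusted p = 0.0414). With the set term 0 of the 30 were higher and 1 was lower, NEK2 (adjusted p = 0.0447), beside 3.72% and 3.07% of all genes. The adjusted p was then 0.148 for MKI67 and 0.133 for CDK1. MKI67 did not pass with the length correction (adjusted p = 0.162) or without replicates 1, 2 or 3 (adjusted p = 0.0826 to 0.200). Calls were lost for PTTG1 without replicate 3 (adjusted p = 0.109), for TTK without replicates 2, 3 or 4 (adjusted p = 0.0768 to 0.126) and for BIRC5 without replicates 1, 3 or 4 (adjusted p = 0.0888 to 0.165). NEK2 did not pass without replicate 1 (adjusted p = 0.0698) or replicate 3 (adjusted p = 0.0968). Under total counts with the block 1 was higher and 2 lower, beside 1675 and 535 of the 17413 genes tested. The mean change differed in sign between the sets of replicates for many of the 30 and not for others. TOP2A was at 0.282 in pairs 1 and 2 and -0.586 in pairs 3 and 4, and CDK1 at -0.545 and -0.455. Both genes were chosen after their values were seen. The difference between the sets did not pass for TOP2A (edgeR adjusted p = 0.507) or CDK1 (edgeR adjusted p = 0.997). Of 15 E2F target genes 1 rose, E2F2 (log2 change 0.53, adjusted p = 0.0158), and 2 fell, among them TK1, thymidine kinase (-0.47, adjusted p = 0.0421). Both counts stand beside the same 7.51% and 6.97% of all genes. TK1 did not pass with the set term (adjusted p = 0.0872) or without any 1 replicate number (adjusted p = 0.0615 to 0.261). E2F2 did not pass without replicate 3 (adjusted p = 0.178). PTTG1 has near-identical copies in the genome, and its counts are uncertain. Of 18 tested paralogues of the 10 genes 2 rose, PHLDA1 and SESN2, and 2 fell, the TP53I3 relative CRYZ (log2 change -0.69, adjusted p = 0.00417) and ZMAT2 (-0.47, adjusted p = 0.0317). The paralogue counts, too, stand beside 7.51% and 6.97% of all genes. SESN2 is also among the further p53 targets above, so its call counts in both lists. CRYZ did not pass without replicate 2 (adjusted p = 0.0525), and ZMAT2 did not pass with the set term (adjusted p = 0.125) or without any 1 replicate number (adjusted p = 0.0514 to 0.160).

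**Figure D4:**
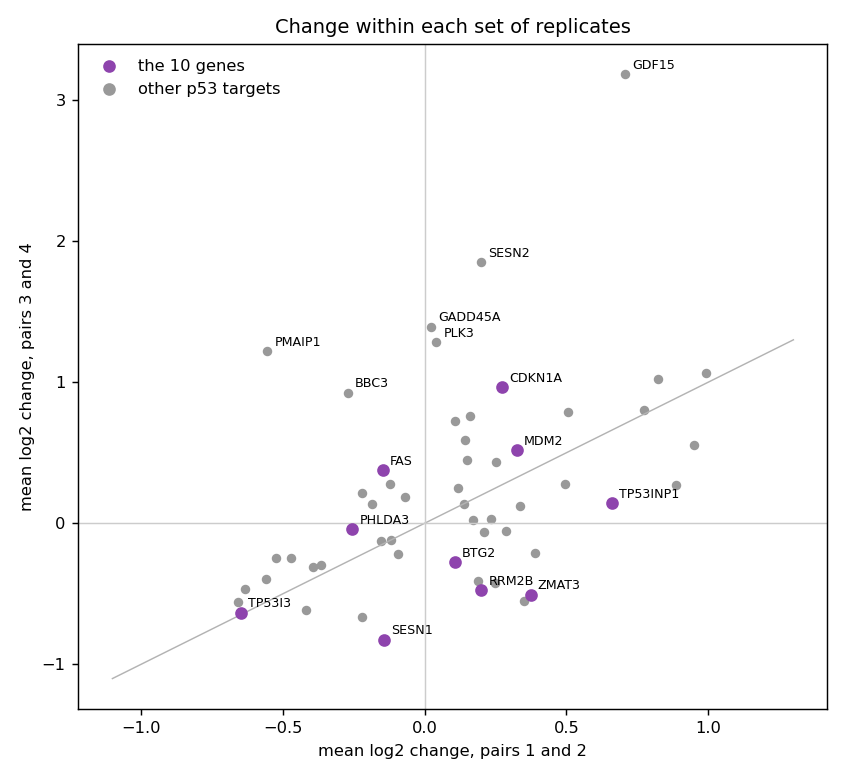
Mean log2 change of treated over control in pairs 1 and 2 (horizontal) and in pairs 3 and 4 (vertical), for the 10 genes (purple, named) and other p53 targets (grey, 6 named); the diagonal marks equal change. TP53I3 lies on the diagonal, CDKN1A and GDF15 lie above it, and ZMAT3 and RRM2B are above 0 in pairs 1 and 2 and below 0 in pairs 3 and 4.

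The genes whose log2 CPM followed CDKN1A most closely over the 8 libraries, among 11525 genes of at least 5 CPM, were HLA-L (Pearson r = 0.988), EREG (0.985), LIF (0.983), SLC7A11 (0.981) and HBEGF (0.979). Among the 5 closest to MDM2 were GCC1 (0.991), GOSR2 (0.986), QTRT2 (0.985) and ZSCAN29 (0.983). None of the other 9 genes was among the closest 5 of either. These values are descriptions, and the points share the division of the replicates as well as the treatment. Some exon bases of the 10 genes are shared with other annotated genes. CDKN1A shares 146 with DINOL, FAS 380 with ACTA2, SESN1 363 with AL390208.1 and TP53I3 80 with FAM228B, all on the opposite strand. PHLDA3 shares 598 with AC096677.2 on its own strand, and MDM2 shares 785 with AC025423.4, 439 with AC025423.2 and 133 with the carboxypeptidase gene CPM. Whether the counts used strand was not stated by the labels, so reads of such bases are uncertain.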

How the data were processed

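The tools named in the submitters' processing notes are DESeq2 1.20.0, HISAT2 2.0.5 and featureCounts 1.5.0-p3, with GRCh38.p13 as the build. Counts were deposited raw, as integers for each gene. The deposited FPKM values were used only for levels per length. From the authors' comparison table the deposited log2 fold change, p-value and adjusted p-value were quoted for the 10 genes. The signal columns there are counts the authors divided by size factors before they deposited them, and were not used. No per-sample column was left unmapped.

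Counts were tested with edgeR 4.0.16 (R 4.3.3; TMM, filterByExpr, quasi-likelihood, Benjamini-Hochberg, threshold 0.05), with the group as the only term in the design. The fit was tested on simulated data. Deviations of equally numbered libraries from their group means of log2 CPM (prior count 2) correlated at 0.532, 0.678, 0.590 and 0.503 across genes, over the minimum of 0.1, so the replicate number was used as a block. Unequal numbers inside replicates 1 and 2 and inside 3 and 4 correlated at 0.443 to 0.652, so a term for these sets was fitted too. Whether equal numbers mark paired cultures is not settled by these correlations. All libraries of a group differed by more than sampling noise (chi-square over its degrees of freedom 10.9 to 260.0). The design text speaks of independent experiments. Group-only p-values measure the spread between these cultures. Those of the other fits measure the spread left after the block or the set term is fitted. CPM values are TMM-normalised; error is SD over 4 libraries. Pair changes use log2 CPM. DESeq2 1.42.0, other scalings, no filter, leaving out replicates and a loess correction for gene length (span 0.3) were alternatives.

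The 10 genes and all gene lists were chosen with earlier results of these data known. Beside the 10, MDM4, TP63 and GDF15 were named, and in each list up to 4 called genes of smallest adjusted p in each direction, and for CDKN1A and MDM2 the 5 genes of highest correlation; some genes under this rule are not reported here.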

Additional observations from a re-analysis of the deposited data

Results flagged for a closer look

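Among 70 groups of 4 libraries, 1 for each named gene and condition, a single library stood far from the others in 2 cases; chance gives about 1 in 20 groups. ZMAT3 was at 18.8 CPM in treated 2, against 12.8 to 13.7 CPM in the other treated libraries. TK1 was at 378 CPM in control 1, against 250 to 260 CPM in the other controls.

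The change after treatment differed between the sets of replicates for 3 named genes, none of them among the 10, beside 0.230% of all genes. The named genes and the sets were chosen with results of these data known. The log2 change in replicates 3 and 4 exceeded that in replicates 1 and 2 by 2.48 for GDF15 (edgeR adjusted p = 0.00156), by 2.26 for PHLDA1 (adjusted p = 0.00746) and by 1.68 for SESN2 (adjusted p = 0.0313). GDF15 was higher in treated libraries in all 4 pairs. Replicates 3 and 4 had lower levels of all 3 genes than replicates 1 and 2, in control and in treated libraries.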

How the results depend on the processing

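With the group as the only term edgeR called 0 genes, 0 of the 10 genes and 0 other p53 targets, also without each single library. With the replicate block it called 2521, 3 and 14, and with the set term 1182, 2 and 6. DESeq2 called 74, 0 and 0 without and 2511, 3 and 13 with the replicate block. Total counts with the block gave 2210, 3 and 12, and the length correction with the block 2203, 3 and 12. With no filter on low counts 34 genes were called, none of them among the 10. Leaving out each replicate number with the block gave 1634, 1502, 1100 and 1886 genes, 3, 3, 1 and 1 of the 10 and 12, 13, 6 and 8 others, for replicates 1 to 4 in turn. Under total counts with the block the median log2 change of all genes was 0.101, against -0.007, and that of the 10 genes 0.036; its 1675 higher and 535 lower calls compare with 1308 and 1213.

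Directions turned only for genes that did not pass. BTG2 was at 0.0399 under total counts without and 0.0265 with the block, 0.0077 without treated replicate 3 and 0.0088 without control replicate 1. ZMAT3 was at 0.0473 and 0.0446 under total counts, 0.1093 without control replicate 4 and 0.1727 without replicate 4 in the blocked fit. RRM2B was at 0.0759 without control replicate 3 and 0.0249 without replicate 3 in the blocked fit, FAS at -0.0463 without treated replicate 3, MDM4 at -0.0299 without treated replicate 2 and -0.0138 without control replicate 3, and TP63 at -0.0038 without control replicate 4. The other ends of the ranges without single libraries were 0.3914 for FAS, -0.1464 for BTG2, -0.2322 for ZMAT3, -0.4918 for RRM2B, 0.4415 for MDM4 and 0.6204 for TP63. The cause was not tested.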
